A study of Mus musculus with 18 samples.

Results

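The Dox response difference is the change of a gene with doxycycline (Dox) in mouse leukemia cells minus its change with Dox in normal blood progenitors. It was computed from 12 of the 18 expression arrays of the series, 3 in each of 4 groups named in the sample titles: AML Dox, AML Control, LSK Dox and LSK Control. AML cells are GFP-positive acute myeloid leukemia cells that carry the MLL-AF9 fusion oncogene and were taken from leukemic mice. LSK cells are lineage-negative, Kit-positive and Sca1-positive marrow cells, the fraction in which blood stem and early progenitor cells are found. Per the labels, all 4 groups come from 4F mice, whose transgenes for Oct4 (encoded by Pou5f1), Sox2, Klf4 and c-Myc respond to Dox, and Dox was given to sorted cells in culture for 24 h. The Control groups are labelled only as control, with no vehicle named. The remaining 6 arrays are cells of both kinds given a mix of reprogramming compounds, and they were not part of the comparison. Each array is labelled a biological repeat, but no label says that repeats came from separate animals, leukemias or cultures. The p-values therefore reflect variation among these arrays, some of which may be technical. Neither the promoter of the transgenes nor the age of the mice is stated in the labels.

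Oct4, Sox2, Klf4 and c-Myc are transcription factors that together can bring differentiated cells to a pluripotent state. Outside that setting Klf4 is known for promoting monocyte differentiation in blood cells, and c-Myc for driving cell growth, ribosome production and entry into the cell cycle. MLL-AF9 keeps the Hoxa genes and Meis1 active and holds myeloid progenitors in a growing, immature state.

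Of 15864 genes tested with limma, 6782 (42.8%) had a response difference with an adjusted p under 0.05 and are referred to as called. It was positive in 3146 genes (19.8%), meaning that the change with Dox was more upward in AML than in LSK cells, and negative in 3636 (22.9%). All values are on the log2 scale, where a difference of 1 is a factor of 2, and adjusted p-values are from limma with Benjamini-Hochberg adjustment over all 15864 genes. The change with Dox was the larger in size in AML cells in 5862 of the called genes (86.4%) and in LSK cells in 920. Over all genes the response had an SD of 0.943 in AML cells and 0.426 in LSK cells, and the median size of a response was 0.318 in AML and 0.16 in LSK cells. The spread between arrays was alike in the 4 groups, with a median SD of 0.123 in AML Dox, 0.113 in AML Control, 0.12 in LSK Dox and 0.119 in LSK Control.

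In a fit of all 18 arrays 2255 genes were called. Only genes under the naming rule were followed one by one in that fit, so genes named outside the rule may also have lost the call. Of the 81 genes under the rule that lost the call there, those described here are Bak1, Blm, Ccl22, Ccl5, Ccnd2, Cd68, Cdh1, Cdk1, Cdkn1a, Cdkn2b, Clec4e, Ctsc, Cycs, Cyp51, Dnmt1, Fcgr2b, Fli1, Gata2, Gfi1b, Gnl3, Gpnmb, Gzmb, Ier3, Ifit1, Igsf6, Itgam, Itm2a, Jun, Kif11, Kit, Klf3, Lamp2, Ltf, Mcm6, Nop58, Npc2, Nt5dc2, Ocln, Pecam1, Pim1, Ptgs2, Selp, Slc7a5, Socs2, Sox2, Tgfb1, Tnf and Usp18. All of these were called in a fit of 17 arrays, without the first LSK array given compounds.

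**Figure D1:**
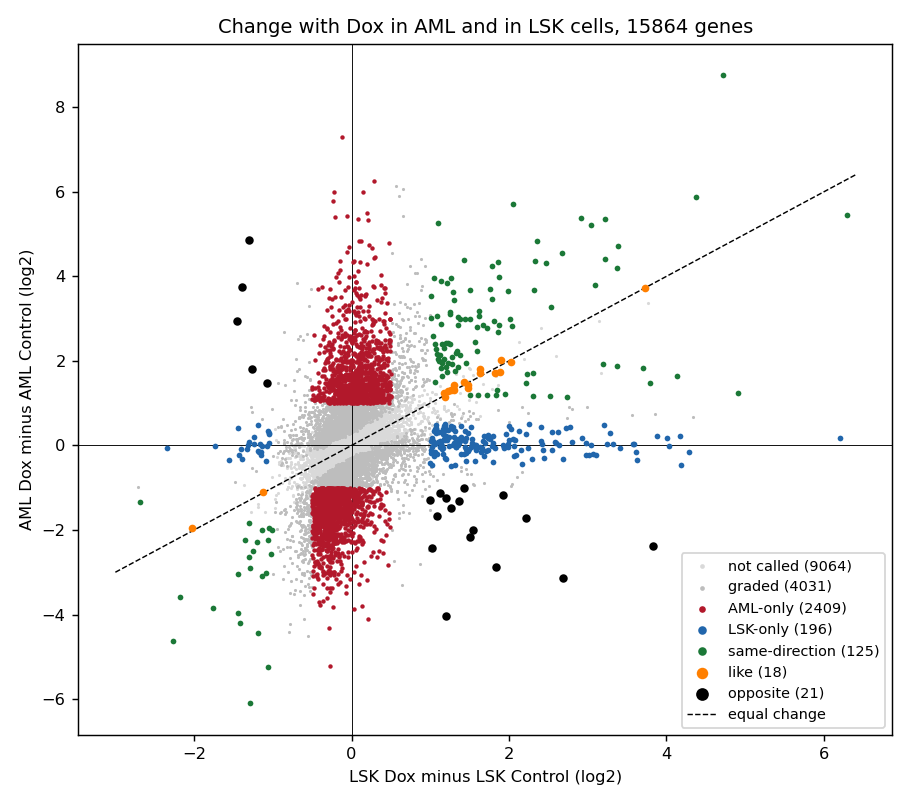
Each point is a gene. The vertical axis is the change with Dox in AML cells and the horizontal axis the change with Dox in LSK cells, both log2 differences of group means of 3 arrays; the dashed line marks equal change, and colours mark the classes defined in the text. The cloud is taller than it is wide, with an SD of 0.943 in AML cells and 0.426 in LSK cells; the 21 black points lie in the quadrants where the signs differ.

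The arrays of a group correlated at 0.986 to 0.989 over all probe sets, and arrays of different groups at 0.911 to 0.979. Hoxa9, a homeobox gene kept on by MLL fusions, read 9.13 to 9.16 on AML Dox and 7.71 to 7.89 on AML Control arrays, against 5.80 to 5.93 on LSK Dox and 5.35 to 5.73 on LSK Control arrays. Flt3, a cytokine receptor of early progenitors, read 2.68 to 2.96 on AML Dox and 3.0 to 3.64 on AML Control arrays, against 6.47 to 6.55 on LSK Dox and 7.35 to 7.44 on LSK Control arrays. Of the other fixed markers, Hoxa10, Mpo and Ctsg were also higher in AML than in LSK controls, and Cd34, Procr and Hlf lower. The leukemia markers Mef2c, Csf3r and Itgam were lower in AML controls instead. Mef2c read 3.79 to 4.22 on AML Control and 6.37 to 6.5 on LSK Control arrays. The LSK marker Mecom was higher in AML controls, and Slamf1 passed the 60th percentile on 0 arrays. Kit and Meis1 were markers of both. Of the lineage markers with a probe set, Cd3e, Col1a1, Siglech, Ly6g and Ncr1 lay under the 60th percentile of the array on all 12 arrays, Cd79a passed it on 2 arrays and Pf4 on the 6 LSK arrays, while Pecam1, which blood progenitors also express, passed it on all 12. Ly6a, which encodes Sca1, had no probe set of its own in the table.

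Of the 4 factors, Klf4 rose and Myc fell with Dox in both cell types, and both gave a called response difference. Klf4 read 9.21, 9.16 and 9.06 on AML Dox, 3.12, 3.29 and 3.39 on AML Control, 8.30, 8.15 and 8.18 on LSK Dox and 3.95, 3.72 and 3.82 on LSK Control arrays. It was high on every Dox array of both cell types, with a response difference of 1.49 ± 0.14 (SE; adjusted p = 9.8e-07). Myc read 4.82, 4.72 and 4.16 on AML Dox, 8.63, 8.67 and 8.70 on AML Control, 8.66, 8.66 and 8.89 on LSK Dox and 9.19, 9.41 and 9.41 on LSK Control arrays. The AML Dox arrays stood far below the other 9, and the response difference was -3.50 ± 0.21 (adjusted p = 1.89e-08). Sox2 differed by 1.01 ± 0.32 (adjusted p = 0.0196) at low levels, 3.60 to 4.56 on AML Dox arrays and 2.38 to 3.23 on the other 9. Without LSK Dox replicate 1 the Sox2 difference was 0.85 with an adjusted p of 0.0529. In LSK cells alone neither Sox2 (adjusted p = 0.407) nor Pou5f1 (adjusted p = 0.573) had a called change with Dox. The response difference of Pou5f1 was not called, with a value of 0.52 (95% interval 0.02 to 1.01, adjusted p = 0.0884), but it was called without AML Dox replicate 2 (0.65, adjusted p = 0.0326) and without LSK Dox replicate 2 (0.67, adjusted p = 0.0234). The labels do not say which stretch of each transcript is probed, and hence whether transgene RNA is measured.

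Called genes were sorted by the size of the response in each cell type. A response counted as present with an adjusted p under 0.05 and a size of at least 1, and as absent with a size under 0.5, whatever its p. This gave 2409 genes (15.2%) with a response in AML cells alone, 196 (1.24%) with a response in LSK cells alone, 21 (0.132%) with responses of opposite sign and 125 (0.788%) with responses of the same sign but unequal size. The remaining 4031 called genes lay between these limits. For comparison, a response of at least 1 was called in 3117 genes in AML cells (19.6%) and in 470 genes in LSK cells (2.96%), so the number of genes open to each class differed between the cell types. At the limits, Ptpre was counted as AML-only with an LSK change of -0.50 and Tgfb1, at -0.502, was not, while Ccm2l was counted as opposite with an LSK change of 1.0 and Cyp51, at 0.998, was not.

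The AML-only class held 1360 genes that fell (8.57%) and 1049 that rose (6.61%) in AML cells. Of these, 477 of the falling and 171 of the rising genes had an LSK change that was itself called (21.0% of all genes), though under 0.5 in size; an AML change of any size was called in 51.4% of all genes. The falling genes were mostly ones that LSK cells also expressed: their median level was 5.09 in AML Dox and 6.8 in AML Control, against 6.45 in LSK Dox and 6.69 in LSK Control, and in 24 of them (1.76%) all 6 LSK arrays lay under the 60th percentile. For the rising genes the medians were 6.46 in AML Dox and 4.58 in AML Control, against 4.82 in LSK Dox and 4.74 in LSK Control, and in 202 of them (19.3%) all 6 LSK arrays were that low. Over all genes tested that share was 28.8%.

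Among rising AML-only genes, Lix1 had the highest response difference of the 15864 genes tested. Lix1 read 8.97, 9.42 and 9.21 on AML Dox, 1.95, 1.87 and 1.90 on AML Control, 2.14, 1.86 and 1.82 on LSK Dox and 2.04, 2.23 and 1.93 on LSK Control arrays. The other 9 arrays lay under the filter level of 2.34 to 2.40, and the difference was 7.42 ± 0.17 (adjusted p = 1.6e-11), or 6.85 after raising them to it. Matn2, which encodes the extracellular matrix protein matrilin-2, read 9.18, 9.27 and 9.34 on AML Dox, 3.13, 3.37 and 3.33 on AML Control, 2.61, 2.39 and 2.68 on LSK Dox and 2.74, 2.97 and 2.61 on LSK Control arrays, a difference of 6.21 ± 0.16 (adjusted p = 2.65e-11). Vcam1, a surface ligand for leukocyte integrins, read 9.45, 9.43 and 9.45 on AML Dox, 3.91, 4.11 and 4.11 on AML Control, 3.97, 3.55 and 3.63 on LSK Dox and 4.12, 3.74 and 3.90 on LSK Control arrays, a difference of 5.61 ± 0.17 (adjusted p = 1.13e-10). In these 3 genes the AML Dox arrays stood alone and the other 3 groups lay close together. The forkhead transcription factor gene Foxc1 (5.49 ± 0.19), the actin-binding protein gene Avil (5.96 ± 0.12), the plasma glycoprotein gene Ahsg (5.86 ± 0.17), the acetylcholine receptor chaperone gene Tmem35a (6.02 ± 0.15) and the cAMP phosphodiesterase gene Pde7b (5.30 ± 0.19) had the same pattern, with adjusted p of 3.56e-10 or less by limma.

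Falling AML-only genes included surface molecules of immature and myeloid cells. Cd34, the sialomucin used to define progenitor cells, read 3.29, 3.86 and 3.17 on AML Dox, 8.74, 8.64 and 8.63 on AML Control, 9.84, 9.80 and 9.84 on LSK Dox and 10.08, 10.12 and 10.08 on LSK Control arrays. The AML Dox arrays lay below all others, and those of LSK Dox lay close to LSK Control; the difference was -4.96 ± 0.20 (adjusted p = 7.61e-10). Clec4e, a C-type lectin receptor of myeloid cells, read 3.52, 2.67 and 3.18 on AML Dox, 7.25, 7.27 and 7.15 on AML Control, 5.94, 6.24 and 5.86 on LSK Dox and 5.81, 5.86 and 5.72 on LSK Control arrays, a difference of -4.32 ± 0.24 (adjusted p = 1.13e-08). Clec11a, which encodes a growth factor of blood progenitors, differed in another way, since LSK cells had little of it. It read 2.7, 2.7 and 2.88 on AML Dox, 6.68, 6.71 and 6.36 on AML Control, 2.76, 2.59 and 2.69 on LSK Dox and 2.73, 3.15 and 2.86 on LSK Control arrays, a difference of -3.59 ± 0.17 (adjusted p = 3.52e-09). By contrast, the SLAM family receptor gene Cd244a (-3.38 ± 0.17), the oxidized lipoprotein receptor gene Olr1 (-3.37 ± 0.17) and the leukocyte myosin gene Myo1f (-3.36 ± 0.19) were present in LSK cells.

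LSK-only genes were 171 that rose (1.08%) and 25 that fell (0.158%) in LSK cells. Unlike the AML-only class, most were low in the other cell type throughout: all 6 AML arrays lay under the 60th percentile in 88 of the rising (51.5%) and 18 of the falling genes (72.0%), against 28.8% of all genes. The LSK Control arrays were also all that low in 78 of the 171 rising genes, and in 0 of the falling ones. Cd109, for one, passed the filter through the LSK Dox arrays alone, so its low AML levels follow from the selection. For the rising genes the median level was 2.83 in AML Dox and 2.84 in AML Control, against 5.31 in LSK Dox and 3.27 in LSK Control. In bulk RNA a change in the share of cells of a type and a change of RNA per cell cannot be told apart.

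Cd36, a fatty acid and lipoprotein scavenger receptor, had the largest negative difference of the class. Cd36 read 2.35, 2.08 and 2.07 on AML Dox, 2.12, 2.0 and 1.88 on AML Control, 8.94, 9.06 and 8.81 on LSK Dox and 2.68, 2.83 and 2.7 on LSK Control arrays, a difference of -6.04 ± 0.15 (adjusted p = 1.6e-11). Thy1, a surface glycoprotein of T cells and of some stem cells, read 3.34, 3.14 and 2.90 on AML Dox, 3.66, 3.45 and 3.33 on AML Control, 8.23, 8.03 and 7.99 on LSK Dox and 4.60, 4.13 and 4.65 on LSK Control arrays, a difference of -3.98 ± 0.21 (adjusted p = 8.85e-09). The LSK Dox arrays of both genes lay above the other 9, and AML levels with and without Dox differed by less than 0.5. Ccdc80 (-4.63 ± 0.14), a secreted matrix protein gene, Cd109 (-4.44 ± 0.13, or -3.72 after raising lower values to the filter level), whose product binds TGF-beta, Chil5 (-4.03 ± 0.17), Crybg1 (-3.93 ± 0.14), the carboxylesterase gene Ces2g (-3.84 ± 0.24) and the platelet chemokine gene Ppbp (-3.76 ± 0.21) followed, with adjusted p of 2.77e-08 or less by limma.

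The falling LSK-only genes had smaller differences. Gpnmb, a transmembrane glycoprotein gene of macrophages and melanocytes, read 2.80, 2.83 and 2.80 on AML Dox, 2.61, 2.89 and 3.14 on AML Control, 3.72, 4.07 and 3.61 on LSK Dox and 6.08, 6.31 and 6.05 on LSK Control arrays, a difference of 2.28 ± 0.20 (adjusted p = 6.71e-07). Gfi1b, a repressor needed for red cell and platelet precursors, read 4.19, 4.26 and 3.87 on AML Dox, 3.81, 3.39 and 3.66 on AML Control, 6.59, 6.6 and 6.35 on LSK Dox and 7.58, 7.64 and 7.87 on LSK Control arrays, a difference of 1.67 ± 0.19 (adjusted p = 8.45e-06). In both genes the LSK Dox arrays lay between LSK Control and the AML arrays. The chitinase-like gene Chil3 (1.86 ± 0.28), the endothelial lipase gene Lipg (1.73 ± 0.15), the lactoferrin gene Ltf (1.45 ± 0.31), Zfp251 (1.40 ± 0.14), Itm2a (1.39 ± 0.24) and the chemokine gene Ccl22 (1.34 ± 0.33) were the others with the largest differences.

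**Figure D2:**
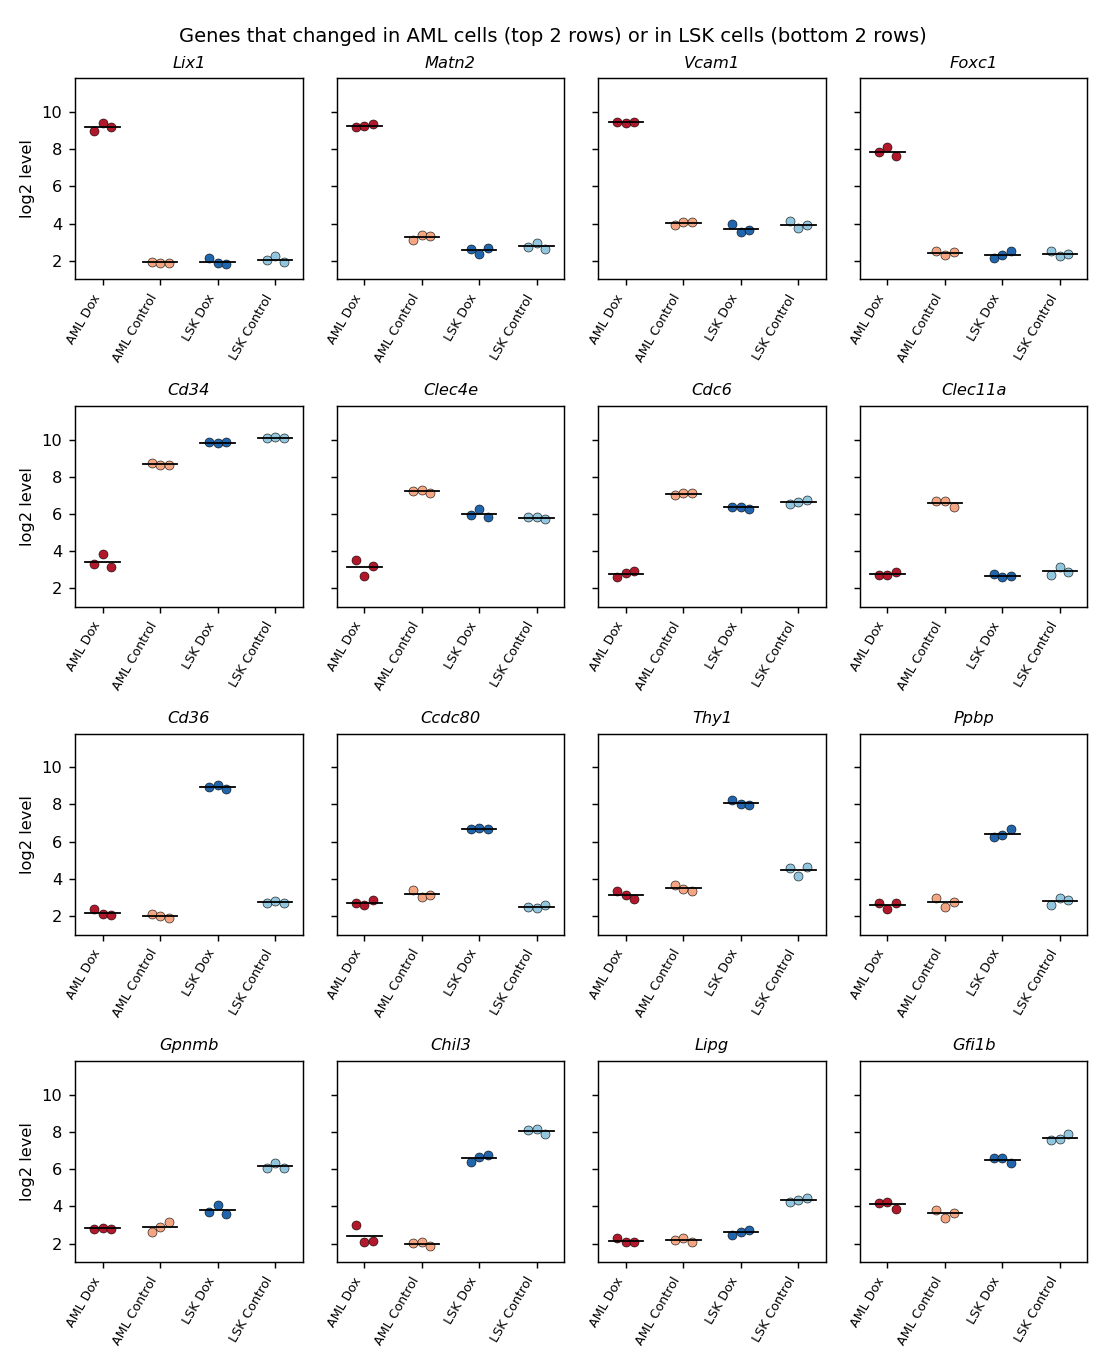
Log2 level (vertical axes) on each of the 3 arrays of the 4 groups for 16 genes, with bars at the group means. The upper 8 genes changed with Dox in AML cells and by less than 0.5 in LSK cells, as Lix1 (response difference 7.42) and Cd34 (-4.96) show; the lower 8 did the reverse, as Cd36 (-6.04) and Gfi1b (1.67) show.

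The mean levels of several marker lists of other cell types differed between LSK Dox and LSK Control arrays. A list mean can be moved by few members, so counts of changed members are given for lists whose means did not overlap. The mean log2 level of 18 megakaryocyte and platelet genes was 5.17 to 5.22 on LSK Dox and 4.72 to 4.89 on LSK Control arrays. Of these, 6 rose and 4 fell with Dox in LSK cells (median change 0.17). Over all genes tested, 21.0% changed in either direction there. For 12 T and NK cell genes the means were 4.12 to 4.16 on LSK Dox and 3.63 to 3.65 on LSK Control arrays, but the median change was -0.05. Klrb1f (3.82) and Thy1 (3.62) rose, Gzmb fell, and the other 9 were not called, a share of changed genes near that over all genes. For 16 stromal and endothelial genes the means were 3.85 to 3.88 on LSK Dox and 3.47 to 3.59 on LSK Control arrays. Of them 5 rose and 1 fell, with a median change of 0.07. Erythroid genes (15) had means of 4.11 to 4.19 on LSK Dox and 3.66 to 3.76 on LSK Control arrays. Here 2 rose and 1 fell, also near the share over all genes, with a median change of -0.05. Mast cell and basophil genes (10) went the other way, with means of 3.49 to 3.56 on LSK Dox and 4.15 to 4.19 on LSK Control arrays. In this list 4 fell and 1 rose. The means of dendritic genes (4.38 to 4.48 on LSK Dox and 4.49 to 4.56 on LSK Control arrays) and of secondary granule genes (5.67 to 5.79 on LSK Dox and 5.81 to 5.95 on LSK Control arrays) were lower with Dox. Of the 15 dendritic genes 5 fell and 2 rose, and of the 16 secondary granule genes 8 fell and 4 rose. Those of B cell, eosinophil and monocyte genes overlapped. Of the defining markers, Cd3e, Ncr1 and Col1a1 stayed under the 60th percentile on all of these arrays. Pf4, the platelet factor gene, read 4.67 to 4.82 on LSK Dox and 4.03 to 4.22 on LSK Control arrays. Pecam1, an adhesion gene of endothelium, platelets and progenitors, read 8.12 to 8.39 on LSK Dox and 6.99 to 7.18 on LSK Control arrays. The part of such cells in the response difference was not tested.

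Responses of opposite sign were found in 21 genes, 16 lower with Dox in AML and higher with Dox in LSK cells, and 5 the other way round. In all 21 the Dox and Control arrays did not overlap in either cell type, which held for 26.9% of all genes in any direction. Their selection by size and adjusted p on the same arrays makes this likely, so it is no separate support. In 14 the order of AML and LSK cells was turned round with no overlap. In 6 of the 16 the AML Dox arrays were all under the 60th percentile. Without the requirement of a size of at least 1, 400 genes (2.52%) had a called response difference and called responses of opposite sign, including some counted as AML-only or LSK-only because the other response was under 0.5.

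Klrb1f, a lectin-like receptor gene of the natural killer cell receptor family, had the largest negative difference of all genes tested. It read 2.74, 3.07 and 3.14 on AML Dox, 5.40, 5.28 and 5.38 on AML Control, 10.17, 10.15 and 10 on LSK Dox and 6.35, 6.25 and 6.26 on LSK Control arrays, a difference of -6.19 ± 0.15 (adjusted p = 1.6e-11). Pde2a, a phosphodiesterase that degrades cAMP and cGMP, read 3.55, 3.37 and 3.65 on AML Dox, 6.65, 6.61 and 6.68 on AML Control, 7.40, 7.27 and 7.18 on LSK Dox and 4.18, 4.83 and 4.77 on LSK Control arrays, a difference of -5.82 ± 0.21 (adjusted p = 3.56e-10). AML cells thus had more Pde2a than LSK cells in the controls and less with Dox. Cd33, a sialic acid receptor of myeloid cells, read 3.30, 3.90 and 3.19 on AML Dox, 7.45, 7.55 and 7.47 on AML Control, 8.11, 8.30 and 8.0 on LSK Dox and 6.89, 6.86 and 7.06 on LSK Control arrays, a difference of -5.23 ± 0.22 (adjusted p = 1.09e-09). Its order was turned round in the same way.

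The others that fell in AML and rose in LSK cells were the chemokine receptor gene Ccr1 (-4.71 ± 0.26), the peptidase inhibitor gene Pi16 (-3.93 ± 0.19), the urokinase receptor gene Plaur (-3.68 ± 0.19), the transglutaminase gene Tgm1 (-3.55 ± 0.15), the kinase gene Stk10 (-3.45 ± 0.21), Calml4 (-3.10 ± 0.24), the transcription repressor gene Bhlhe40 (-2.77 ± 0.24), the early response gene Ier3 (-2.75 ± 0.18), the arginine deiminase gene Padi4 (-2.68 ± 0.21), the cytokine gene Osm (-2.45 ± 0.25), the Rac activator gene Dock5 (-2.44 ± 0.12), Ccm2l (-2.29 ± 0.14) and the potassium channel subunit gene Kcne3 (-2.25 ± 0.30). For Plaur, as an example, the levels were 3.33, 2.82 and 2.89 on AML Dox, 5.08, 5.12 and 5.37 on AML Control, 6.75, 7.04 and 6.85 on LSK Dox and 5.24, 5.44 and 5.46 on LSK Control arrays. The Plaur controls of the 2 cell types lay side by side, and Dox moved them apart in both directions.

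Among the 5 genes that rose in AML and fell in LSK cells, Slc18a2, the vesicular monoamine transporter gene, read 7.37, 7.49 and 7.37 on AML Dox, 2.42, 2.67 and 2.58 on AML Control, 3.82, 4.13 and 4.31 on LSK Dox and 5.45, 5.14 and 5.57 on LSK Control arrays, a difference of 6.15 ± 0.19 (adjusted p = 1.18e-10). Scin, which encodes an actin-severing protein, read 7.22, 7.09 and 7.21 on AML Dox, 3.28, 3.54 and 3.43 on AML Control, 3.81, 4.05 and 3.96 on LSK Dox and 5.49, 4.94 and 5.55 on LSK Control arrays, a difference of 5.14 ± 0.20 (adjusted p = 6.58e-10). Both genes were lower in AML than in LSK controls and higher in AML than in LSK cells with Dox. The activating lectin receptor gene Clec5a (4.39 ± 0.14), the ERK phosphatase gene Dusp6 (3.08 ± 0.18) and the mannosyltransferase gene Dpy19l3 (2.56 ± 0.14) completed the group. Dusp6 read 8.62, 8.66 and 8.74 on AML Dox, 6.8, 6.69 and 7.08 on AML Control, 5.64, 5.85 and 5.41 on LSK Dox and 6.75, 6.89 and 7.05 on LSK Control arrays, so its controls overlapped. Another, dimmer probe set of Dusp6 gave a difference of 0.52.

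**Figure D3:**
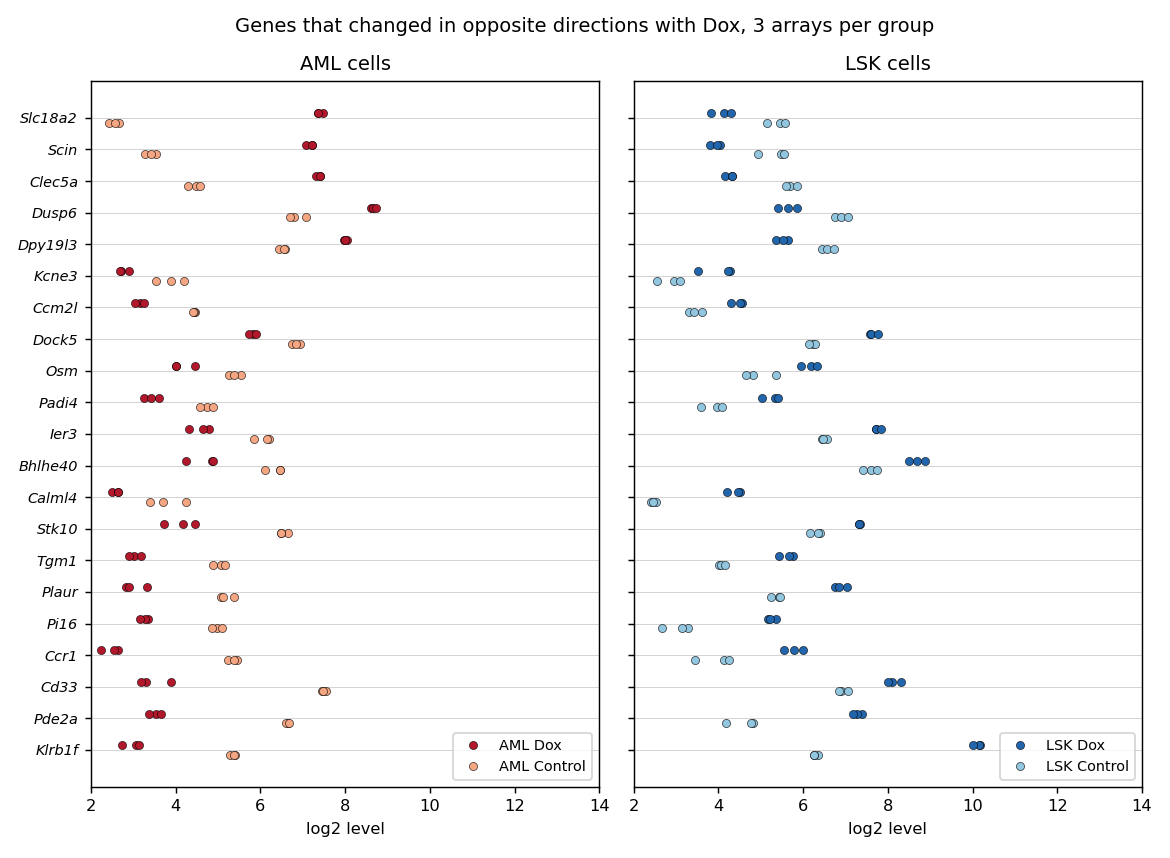
Log2 level (horizontal axes) of the 21 genes with responses of opposite sign, in AML cells on the left and LSK cells on the right, with a point for each of 3 arrays per group. Dox points lie to the right of Control points in AML cells for the top 5 genes and to the left for the other 16, and the reverse holds in LSK cells, with no overlap of Dox and Control arrays in any of the 21.

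Of the 125 genes with unequal responses of the same sign, 102 rose and 23 fell in both cell types. Akr1c18, which encodes an enzyme that inactivates progesterone, read 11.25, 11.38 and 11.15 on AML Dox, 2.53, 2.48 and 2.50 on AML Control, 7.71, 7.79 and 7.78 on LSK Dox and 2.61, 3.33 and 3.16 on LSK Control arrays, a difference of 4.03 ± 0.20 (adjusted p = 5.06e-09). Starting levels were low in both cell types and the Dox arrays were far apart. Anxa1 (4.15 ± 0.11), which encodes the anti-inflammatory protein annexin A1, ended at alike levels instead: 8.60 to 8.65 on AML Dox and 8.77 to 8.85 on LSK Dox arrays, with controls of 3.34 to 3.39 in AML and 7.60 to 7.81 in LSK cells. The proteoglycan gene Vcan rose more in AML cells (3.65 ± 0.17), and Cd200r4, a gene of the CD200 receptor family, rose more in LSK cells (-3.66 ± 0.29). Among falling genes, Ctsg, which encodes the granule protease cathepsin G, read 4.27, 4.55 and 4.66 on AML Dox, 10.58, 10.58 and 10.64 on AML Control, 7.09, 7.13 and 7.11 on LSK Dox and 8.27, 8.42 and 8.5 on LSK Control arrays, a difference of -4.81 ± 0.14 (adjusted p = 1.04e-10). The myeloid inhibitory receptor gene Clec12a (-4.19 ± 0.13), Nt5dc2 (-3.25 ± 0.13) and the adhesion receptor gene Adgrg3 (-2.77 ± 0.18) also fell further in AML cells.

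A further 18 genes, 16 rising and 2 falling, responded alike: the response difference was not called and its 95% interval lay within 0.5 of 0. Elane, which encodes neutrophil elastase, read 7.78, 7.51 and 7.71 on AML Dox, 9.55, 9.69 and 9.64 on AML Control, 7.37, 7.37 and 7.24 on LSK Dox and 9.40, 9.26 and 9.40 on LSK Control arrays. It fell by 1.96 in AML and by 2.03 in LSK cells, with a difference of 0.07 (interval -0.21 to 0.35). Tppp3, a tubulin-binding protein gene, rose by 3.72 in AML and 3.73 in LSK cells (interval of the difference -0.31 to 0.29). Tcp11l2 (-0.41 to 0.30) and the lectin gene Clec2i (-0.14 to 0.39) were the others with the largest mean response.

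The response difference is also the change in the gap between the cell types. With Dox, 3152 genes had AML and LSK means at least 2-fold apart, against 977 in the controls, and the SD of the AML minus LSK difference over genes was 0.968 with Dox and 0.582 in the controls. AML and LSK arrays did not overlap in 9376 genes with Dox (59.1%) and in 7014 in the controls (44.2%). The order was turned round with no overlap at either end in 1583 called genes (9.98%), of which 592 (3.73%) were higher in AML than LSK cells with Dox and lower in AML controls, and 991 (6.25%) did the opposite. Bmpr2, a receptor for bone morphogenetic proteins, read 10.30, 10.27 and 10.26 on AML Dox, 4.46, 4.19 and 4.49 on AML Control, 8.79, 8.70 and 8.63 on LSK Dox and 8.07, 8.16 and 8.05 on LSK Control arrays. Its AML level was the lower by over 3 in controls and the higher by over 1 with Dox, a response difference of 5.29 ± 0.13 (adjusted p = 1.6e-11). Cdc42bpa, a Cdc42 effector kinase gene (4.31 ± 0.21), and Rgs2, a brake on G protein signalling (3.83 ± 0.12, or 1.12 with a dimmer probe set), followed the same course. Pld4, a lysosomal nuclease gene, took the opposite course, with 3.74 to 4.26 on AML Dox, 7.32 to 7.38 on AML Control, 6.27 to 6.45 on LSK Dox and 5.68 to 5.76 on LSK Control arrays (-3.95 ± 0.16).

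**Figure D4:**
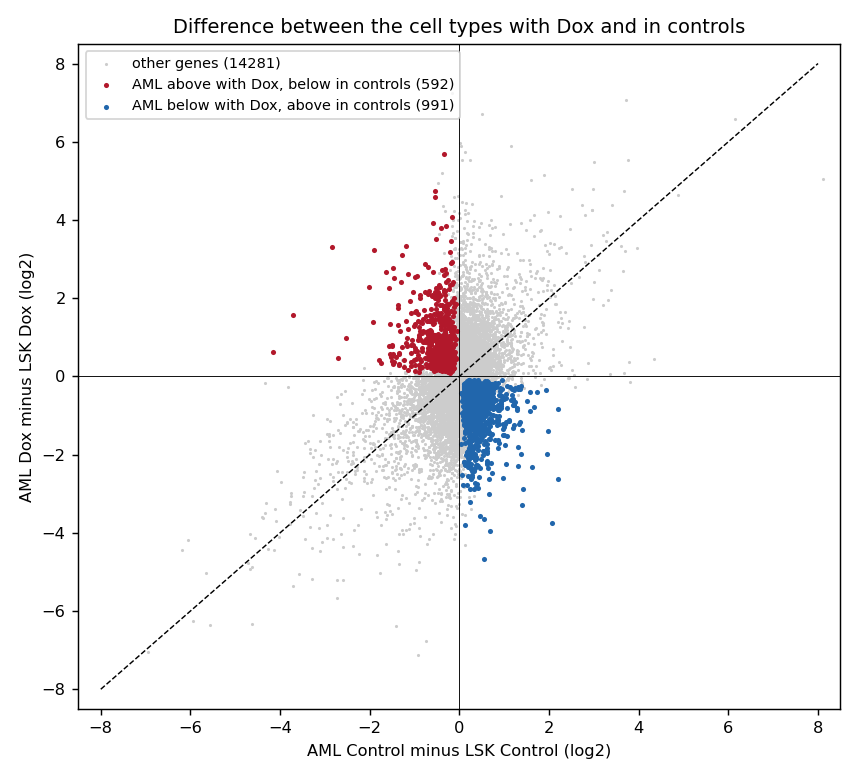
Each point is a gene, with the AML minus LSK difference with Dox on the vertical axis and in the controls on the horizontal axis (log2 of group means of 3 arrays); the dashed line marks no response difference. Red points are the 592 called genes that are higher in AML with Dox and lower in AML controls with no overlap of arrays, and blue points are the 991 that changed order the other way.

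The gene lists described next hold pathway and cell type genes, and each count of called members stands beside the 42.8% called among all genes, whose median response difference was 0.00. Genes of cell division were mostly lower. Of 32 DNA replication genes, 31 were called and all 31 were lower, with a median of -2.0. Averaged over the list, the level was 5.04 to 5.05 on AML Dox and 7.24 to 7.28 on AML Control arrays, against 6.91 to 6.97 on LSK Dox and 7.19 to 7.27 on LSK Control arrays. The controls of the 2 cell types overlapped, and the AML Dox arrays lay below all others. Cdc6, which loads the replicative helicase at origins, read 2.59, 2.82 and 2.92 on AML Dox, 7.03, 7.10 and 7.15 on AML Control, 6.39, 6.39 and 6.28 on LSK Dox and 6.54, 6.63 and 6.75 on LSK Control arrays, a difference of -4.03 ± 0.14 (adjusted p = 2.29e-10). The helicase subunit genes Mcm2 (-3.32 ± 0.14), Mcm6 (-3.11 ± 0.13) and Mcm5 (-2.85 ± 0.11) followed. The exception was Pola1, the catalytic subunit gene of polymerase alpha (0.08, adjusted p = 0.589).

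Mitosis genes gave 25 of 27 lower and 1 higher, with a median of -1.47 and named members Aurkb (-2.26 ± 0.11) and Kif20a (-2.14 ± 0.11), which act in cytokinesis, Cdk1 (-1.81 ± 0.11), the kinase that starts mitosis, and the spindle motor gene Kif11 (-1.56 ± 0.10). The higher member was the checkpoint gene Mad2l1 (0.40 ± 0.10). DNA repair genes gave 16 of 19 lower and 1 higher, with a median of -1.75, led by the resection nuclease gene Exo1 (-2.79 ± 0.16), the helicase gene Blm (-2.74 ± 0.11) and Rad54l (-2.68 ± 0.13), a recombination gene. The higher member, Xrcc5, encodes a Ku subunit for end joining (1.76 ± 0.17). Of 18 genes of G1 cyclins, their kinases and the E2F-Rb system, 14 were lower, among them E2f8 (-3.26 ± 0.16), Ccnd2 (-2.45 ± 0.12) and Rbl1 (-2.44 ± 0.11), and 2 were higher, the retinoblastoma gene Rb1 (1.55 ± 0.11) and Ccnd1 (1.19 ± 0.23).

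Inhibitors of cyclin-dependent kinases mostly went the other way, with 4 of 7 higher, 1 lower and a median of 0.68. Cdkn1b, which encodes p27, read 7.06, 7.0 and 7.04 on AML Dox, 4.73, 4.72 and 4.61 on AML Control, 5.53, 5.48 and 5.68 on LSK Dox and 4.93, 4.92 and 5.38 on LSK Control arrays, a difference of 1.86 ± 0.16 (adjusted p = 7.3e-07). AML Dox arrays had more Cdkn1b than all others. Cdkn1a, which encodes p21, was lower instead (-1.72 ± 0.16), with 4.82 to 5.14 on AML Dox, 6.33 to 6.61 on AML Control, 8.23 to 8.42 on LSK Dox and 7.96 to 8.19 on LSK Control arrays. Cdkn2c (1.69 ± 0.26) and Cdkn2b (0.68 ± 0.19) were higher.

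All 29 ribosome biogenesis genes were called and lower, with a median of -1.85 and list means of 5.73 to 5.75 on AML Dox and 7.98 to 8.0 on AML Control arrays, against 7.54 to 7.59 on LSK Dox and 7.96 to 8.0 on LSK Control arrays. Gnl3, a nucleolar GTPase gene, read 5.16, 5.15 and 5.20 on AML Dox, 8.49, 8.60 and 8.54 on AML Control, 8.45, 8.58 and 8.63 on LSK Dox and 8.87, 8.72 and 8.89 on LSK Control arrays, a difference of -3.11 ± 0.11 (adjusted p = 4.01e-10). The AML Dox arrays stood more than 3 below every other array. The guide RNA partner gene Nop58 (-2.85 ± 0.12) and the ribosome assembly genes Ppan (-2.42 ± 0.11) and Utp20 (-2.35 ± 0.11) were next.

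In the Myc network and its targets 14 of 21 were lower, led by the spermidine synthase gene Srm (-3.94 ± 0.18) and the transferrin receptor gene Tfrc (-3.29 ± 0.13), and 1 was higher, the Myc antagonist gene Mxd4 (3.31 ± 0.14). Mxd4 read 8.70, 8.57 and 8.58 on AML Dox and 4.60 to 5.20 on the other 9 arrays. Of 24 genes of the unfolded protein and ATF4 response, 21 were lower and 0 higher, with a median of -1.63. They included the stress transcription factor gene Xbp1 (-2.85 ± 0.10), Cth, a cysteine synthesis gene (-3.30 ± 0.16), and the serine pathway gene Shmt2 (-2.46 ± 0.11). Cholesterol synthesis genes gave 12 of 16 lower and 0 higher (median -0.89), led by Sqle (-2.79 ± 0.15) and Cyp51 (-2.52 ± 0.18). Sqle read 3.56 to 3.70 on AML Dox, 5.96 to 6.26 on AML Control, 6.56 to 6.74 on LSK Dox and 6.25 to 6.59 on LSK Control arrays. Glycolysis and hypoxia genes gave 13 of 21 lower and 1 higher (median -0.88), with Vegfa (-2.73 ± 0.14) and the hexokinase gene Hk2 (-2.36 ± 0.14), and amino acid and polyamine genes 10 of 20 lower and 2 higher (median -0.31), with the transporter genes Slc1a5 (-2.50 ± 0.17) and Slc7a5 (-2.36 ± 0.12).

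Promoter letters are shown for these groups because E2F factors act on replication genes and Myc on ribosome genes. The E2F letters TTTCCCGC or GCGGGAAA, the same site on either strand, were in 1.9% of the 12040 promoters of tested genes (RefSeq windows of build GRCm38.p6, 250 bases before to 50 after the start), in 4.4% of 1084 promoters of falling AML-only genes and in 6 of 26 promoters of the replication list (23.1%), but in 0 of 21 promoters of the mitosis list. The E-box CACGTG, which reads the same on both strands, was in 9.5% of all promoters, in 13.4% of those of falling AML-only genes, in 3.8% of those of rising LSK-only genes and in 7 of 26 of the ribosome biogenesis list (26.9%), against 1 of 21 of the mitosis list (4.8%). KLF letters, CACCC or GGGTG, were in 62.8% of all promoters and in 58.7% of those of falling AML-only genes, and the octamer ATGCAAAT or ATTTGCAT was in 1.4% of both. These are matches of letters in a window and were not tested. Only the first listed window of each gene was searched, and 2215 genes had more than 1. The 4 stretches of 100 bases upstream of a start, from 2 genes of each list that have a match before the start, are given with the match in capitals, on the strand of the gene: Cdc6 at chr11:98907967-98908066 (plus strand), Mcm7, a helicase subunit gene, at chr5:138171995-138172094 (minus strand), Nop2, a ribosomal RNA methyltransferase gene, at chr6:125131776-125131875 (plus strand), and Imp4, a ribosome assembly gene, at chr1:34439661-34439760 (plus strand).
Cdc6: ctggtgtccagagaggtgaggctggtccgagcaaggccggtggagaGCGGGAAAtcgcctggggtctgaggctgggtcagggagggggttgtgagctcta
Mcm7: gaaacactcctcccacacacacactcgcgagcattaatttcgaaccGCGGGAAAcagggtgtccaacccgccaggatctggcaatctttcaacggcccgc
Nop2: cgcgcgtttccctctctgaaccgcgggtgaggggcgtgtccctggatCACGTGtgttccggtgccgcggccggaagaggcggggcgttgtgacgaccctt
Imp4: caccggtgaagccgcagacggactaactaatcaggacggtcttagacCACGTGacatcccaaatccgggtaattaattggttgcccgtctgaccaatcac
The response difference was -4.03 for Cdc6, -2.54 for Mcm7, -2.41 for Nop2 and -1.10 for Imp4, all called.

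Interferon response genes were mostly higher: 16 of 21 were called, all of them higher, with a median of 1.19. The list mean was 5.75 to 5.83 on AML Dox and 4.03 to 4.08 on AML Control arrays, against 4.70 to 4.80 on LSK Dox and 4.34 to 4.5 on LSK Control arrays. Irf7, the transcription factor that amplifies interferon production, read 8.12, 8.13 and 7.98 on AML Dox, 3.71, 3.63 and 3.60 on AML Control, 4.29, 4.43 and 3.96 on LSK Dox and 3.71, 4.15 and 3.98 on LSK Control arrays, a difference of 4.15 ± 0.18 (adjusted p = 1.75e-09). LSK levels of Irf7 overlapped with and without Dox. The antiviral gene Ifit1 (3.50 ± 0.18), the receptor chaperone gene Rtp4 (3.12 ± 0.11) and the ISG15 protease gene Usp18 (3.03 ± 0.19) were also higher.

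**Figure D5:**
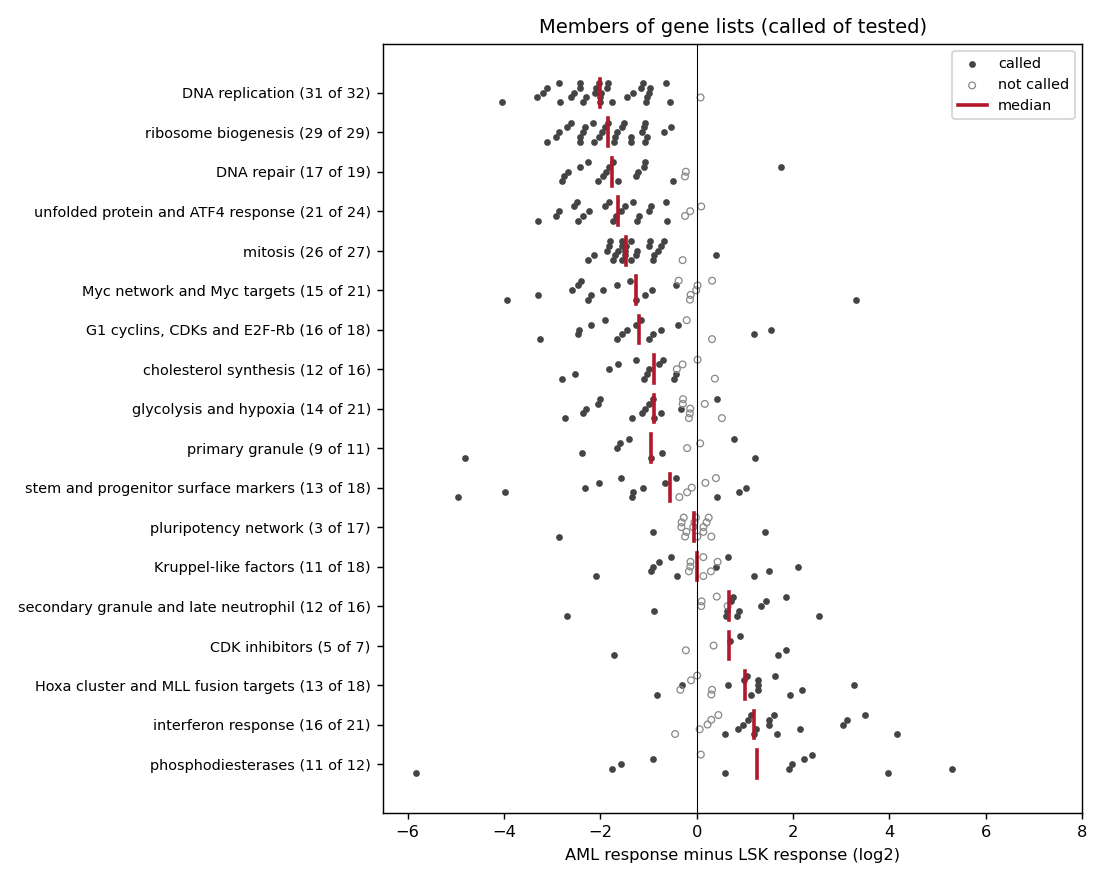
Response difference (horizontal axis, log2) of each tested member of 18 gene lists, with filled points for called and open points for not called members and a red bar at the median. Numbers beside each name are called of tested members. Medians run from -2.0 for DNA replication, with 31 of 32 called, to 1.26 for phosphodiesterases, with 11 of 12 called.

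Signalling genes were mixed. Phosphodiesterases, which break down cyclic nucleotides, gave 11 of 12 called, 7 higher and 4 lower, with a median of 1.26: Pde2a was lower, and Pde5a (3.97 ± 0.22) and Pde7a (2.40 ± 0.12, or 0.77 with a dimmer probe set) were higher, as was Pde7b. Ptger4, the gene of a prostaglandin E2 receptor that raises cAMP, read 8.54, 8.68 and 8.70 on AML Dox, 4.16, 4.29 and 4.38 on AML Control, 5.42, 5.44 and 5.09 on LSK Dox and 5.55, 5.46 and 5.41 on LSK Control arrays, a difference of 4.52 ± 0.15 (adjusted p = 1.65e-10). It belongs to a list of 13 prostaglandin and aldo-keto reductase genes, of which 5 were higher, among them the prostaglandin synthase gene Ptgs2 (2.73 ± 0.20), and 3 lower, among them the prostacyclin receptor gene Ptgir (-2.18 ± 0.21). NF-kB and inflammatory genes gave 9 of 26 higher, led by Ptgs2, which this list also holds, and the chemokine gene Ccl5 (2.27 ± 0.13), and 4 lower, led by Tnf (-2.7 ± 0.15). Tnf read 3.47 to 3.83 on AML Dox, 6.92 to 7.22 on AML Control, 5.85 to 5.95 on LSK Dox and 6.64 to 6.75 on LSK Control arrays. Early response and MAPK feedback genes gave 6 higher and 6 lower of 25, with Jun (1.92 ± 0.18) and the feedback inhibitor gene Spry2 (1.92 ± 0.14) higher besides Dusp6. In the SOCS, PIM and STAT list 3 of 14 were higher, led by the cytokine signalling inhibitor gene Socs2 (2.88 ± 0.13), and 7 lower, including the kinase gene Pim1 (-1.78 ± 0.15). A dimmer probe set of Pim1 gave -0.08.

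In the list of Hoxa genes and MLL fusion targets 11 of 18 were higher and 2 lower, with a median of 1.01. The Hoxa members included Hoxa2 (1.93 ± 0.20), Hoxa7 (1.12 ± 0.13), Hoxa9 (1.05 ± 0.15) and Hoxa10 (1.27 ± 0.21), and the RNA-binding protein gene Cpeb2 had 3.27 ± 0.18. The list mean was 7.72 to 7.81 on AML Dox and 6.70 to 6.74 on AML Control arrays, against 5.73 to 5.74 on LSK Dox and 5.53 to 5.63 on LSK Control arrays. Stem cell transcription factors gave 9 of 21 lower and 1 higher, with Lyl1 (-3.29 ± 0.16), Fli1 (-1.78 ± 0.13) and Gata2 (-1.31 ± 0.14) lower and Gfi1b higher. Meis1, the partner of Hoxa9, was not called (-0.12).

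Of 18 stem and progenitor surface markers, 10 were lower and 3 higher (median -0.55), and the lower ones came about in different ways. Cd34 fell in AML cells, while Thy1 and Procr, the protein C receptor used to mark stem cells, rose in LSK cells. Procr read 3.56, 3.48 and 3.33 on AML Dox, 3.04, 3.01 and 2.98 on AML Control, 6.53, 6.4 and 6.77 on LSK Dox and 3.61, 3.91 and 3.86 on LSK Control arrays, a difference of -2.33 ± 0.16 (adjusted p = 6.35e-08). The stem cell factor receptor gene Kit, used to sort the LSK cells, read 3.44, 3.0 and 3.89 on AML Dox, 6.22, 6.16 and 6.28 on AML Control, 6.89, 7.02 and 6.96 on LSK Dox and 7.66, 7.76 and 7.72 on LSK Control arrays. It fell in both, by 2.78 in AML and by 0.76 in LSK cells, a difference of -2.02 ± 0.23 (adjusted p = 7.56e-06).

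Myeloid transcription factors gave 10 of 20 lower and 2 higher (median -0.60). Cebpb (-2.42 ± 0.13) and Id1 (-2.60 ± 0.16) fell in AML cells, Nr4a1, a nuclear receptor of the early response (-1.96 ± 0.16), rose in LSK cells, and Id2 (2.37 ± 0.15) rose in AML cells. The primary granule list, which also holds genes of early myeloid precursors that encode no granule protein, gave 7 of 11 lower and 2 higher (median -0.94). Ms4a3 (-2.37 ± 0.19), Ctsc (-1.65 ± 0.13) and Igsf6 (-1.59 ± 0.17) stood next to Ctsg. Secondary granule and late neutrophil genes gave 10 of 16 higher and 2 lower (median 0.68), and these reached the same sign by different routes. Itgam, the integrin subunit CD11b of mature myeloid cells, rose in AML cells: it read 9.19, 9.14 and 9.06 on AML Dox, 6.25, 6.04 and 6.25 on AML Control, 6.91, 6.77 and 6.48 on LSK Dox and 6.42, 6.27 and 6.26 on LSK Control arrays (2.54 ± 0.16, adjusted p = 2.73e-08). Camp (1.32 ± 0.14), Ltf and Chil3, whose products are stored in granules or secreted, fell in LSK cells and stayed low in AML cells.

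Monocyte and macrophage genes gave 9 of 24 higher and 5 lower (median 0.13), led on the higher side by Vcan and Gpnmb, and with the lysosomal marker gene Cd68 lower (-2.66 ± 0.16) besides Cd36. Myeloid inhibitory receptors and checkpoint ligands gave 9 of 19 lower and 3 higher (median -0.47). Cd200, a ligand that restrains myeloid cells, read 8.03, 8.06 and 8.06 on AML Dox, 1.91, 1.71 and 2.31 on AML Control, 3.48, 2.89 and 2.94 on LSK Dox and 2.52, 2.59 and 2.25 on LSK Control arrays, a difference of 5.42 ± 0.24 (adjusted p = 1.85e-09). Cd33, Clec12a and the Fc receptor gene Fcgr2b (-1.85 ± 0.14) were the leading lower members. Integrin genes gave 6 of 17 higher and 4 lower, with Itgb7 lower (-2.31 ± 0.22) through a rise in LSK cells. Megakaryocyte and platelet genes gave 8 of 18 lower and 3 higher (median -0.32): Ppbp and Selp, the P-selectin gene (-2.66 ± 0.19), rose in LSK cells, and Nbeal2, needed for platelet granules, fell in AML cells (-2.90 ± 0.14). Erythroid genes gave 5 of 15 called. Lists of dendritic (6 of 15), mast cell (7 of 10), eosinophil (3 of 4), B cell (4 of 9) and stromal genes (5 of 16) had called members in both directions.

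Pro-apoptotic genes gave 4 of 14 lower and 0 higher (median -0.21), led by Bid (-2.47 ± 0.16), Cycs (-1.49 ± 0.11) and Bak1 (-1.25 ± 0.13), all of which act at mitochondria. Anti-apoptotic genes gave 5 of 10 higher and 2 lower (median 0.38). Bcl2, the founding survival gene of its family, read 6.36, 6.43 and 6.19 on AML Dox, 5.30, 5.45 and 5.50 on AML Control, 6.8, 6.71 and 6.84 on LSK Dox and 7.95, 8.12 and 8.12 on LSK Control arrays, a difference of 2.19 ± 0.13 (adjusted p = 2.12e-08). It rose in AML and fell in LSK cells, and the AML change of 0.91 kept it out of the class of opposite responses. Another, dimmer probe set of Bcl2 gave a difference of 0.06. Among p53 targets 9 of 21 were lower and 4 higher (median -0.38), with Trp53inp1 higher (2.78 ± 0.13) and Sesn2 lower (-2.23 ± 0.18).

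Pluripotency genes gave 2 of 17 lower and 1 higher (median -0.05). The called members were Gdf3 (-2.86 ± 0.20), Klf2 (-0.90 ± 0.21) and the DNA demethylation gene Tet1 (1.41 ± 0.23). Epithelial genes gave 2 of 11 lower and 0 higher, the cadherin gene Cdh1 (-0.66 ± 0.15) and Ocln (-0.33 ± 0.11), both at low levels. With the mean of all probe sets Cdh1 was at -0.23 and not called (adjusted p = 0.107), and its other probe set, at a lower level, gave 0.19. The call of Ocln was lost with a trended and robust prior (adjusted p = 0.109), without AML Dox replicate 2 (adjusted p = 0.0542) and without AML Control replicate 1 (0.0555) or 2 (0.0534). Matrix genes gave 3 higher and 4 lower of 14: beside Matn2, the lower members S100a4 (-2.61 ± 0.17), Fn1 (-1.97 ± 0.16), Sparc (-1.84 ± 0.14) and Timp3 (-1.83 ± 0.17) all rose in LSK cells alone. Among Kruppel-like and Sp factors 5 of 18 were higher and 6 lower (median 0.00), with Klf8 (2.11 ± 0.30) and Klf3 (1.19 ± 0.15) rising more in AML cells, and Klf12 (-2.08 ± 0.17) more in LSK cells.

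Oxidative stress genes gave 11 of 18 lower and 3 higher, led by the quinone reductase gene Nqo1, which rose by 2.17 in LSK cells and fell by 0.62 in AML cells (-2.79 ± 0.17). Lysosome and autophagy genes gave 11 of 24 higher and 2 lower (median 0.22), with Npc2 (1.55 ± 0.12) and Lamp2 (0.99 ± 0.11). Chromatin regulators gave 7 of 25 higher and 9 lower, with Uhrf1 (-3.14 ± 0.16) and Dnmt1 (-1.53 ± 0.11), which maintain DNA methylation, lower and Ezh1 higher (1.08 ± 0.11). Growth factor receptor genes gave 6 higher and 7 lower of 20, heat shock genes 2 and 5 of 13, TGF-beta and BMP targets 5 and 4 of 19, and Wnt targets 3 and 4 of 14.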

How the data were processed

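Values were used as deposited: per the submitters' processing notes the authors summarised probe sets with RMA, which gives background-corrected, normalized expression on the log2 scale; neither its version nor a genome build is stated. Of 41345 probe sets, 23521 named 1 gene, and each of 22180 genes was represented by its probe set of highest average over the 12 arrays. Genes above the 40th percentile of an array on at least 3 of 12 arrays were tested (15864). limma 3.58.1 in R 4.3.3 was fitted with 1 mean per group and eBayes (8 residual degrees of freedom), and p-values were adjusted by Benjamini-Hochberg with a threshold of 0.05. The median standard error of the response difference was 0.162. Arrays have no sequencing depth, and the number of arrays sets the precision. The fit was tested on simulated data.

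The 4 factors were always named. Beside them stand the 8 largest differences in each direction of the AML-only and LSK-only classes, up to 8 opposite genes in each direction, the 4 largest of the other classes and of the order reversals in each direction, and up to 4 members per list with the smallest p; predicted genes and small RNA genes were left out. Not every list member that the rule names is described in the text, and the result of 1 falling AML-only gene is not reported here. Fixed marker genes, the genes at the class limits and the remaining opposite genes were added, and Mcm7, Nop2, Imp4, Timp3, Rb1, Ccnd1, Mad2l1, Xrcc5 and Pola1 were named after their values were seen. Alternatives covered the arrays fitted, the prior, normalization, filter, probe sets, class limits, the replicate block and each array left out. The 49 lists have 982 entries, of which 903 had a probe set and 850 were tested; 4 were matched through an older symbol. The classes, lists and members were chosen with earlier results of these data known. No source states whether probe sets separate close relatives such as the Klrb1, Cd200r and Chil genes.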

Additional observations from a re-analysis of the deposited data

Results flagged for a closer look

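The response difference is itself a test of whether AML and LSK cells changed unequally with Dox, and it passed the threshold in 6782 genes. The 21 genes with responses of opposite sign were singled out because the change was at least 1 in each direction. In AML cells 16 of them fell while they rose in LSK cells: Klrb1f (-6.19), Pde2a (-5.82), Cd33 (-5.23), Ccr1 (-4.71), Pi16 (-3.93), Plaur (-3.68), Tgm1 (-3.55), Stk10 (-3.45), Calml4 (-3.10), Bhlhe40 (-2.77), Ier3 (-2.75), Padi4 (-2.68), Osm (-2.45), Dock5 (-2.44), Ccm2l (-2.29) and Kcne3 (-2.25). The other 5 rose in AML cells and fell in LSK cells: Slc18a2 (6.15), Scin (5.14), Clec5a (4.39), Dusp6 (3.08) and Dpy19l3 (2.56). Groups of 3 arrays were not searched for single outlying arrays.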

How the results depend on the processing

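Over all genes under the naming rule, described or not, 88 calls were lost across all alternatives. Another 11 were gained, 0 changed sign and 4985 values kept their side. Genes named outside the rule were not part of these counts. With all 18 arrays in the fit 2255 genes were called, with 1271 AML-only, 131 LSK-only, 14 opposite and 55 same-direction genes. Without LSK compound replicate 1, 6574 were called. A test against a difference of 0.5 called 3151. Requiring the 95% interval of the absent response to lie within 0.5 of 0 left 1391 AML-only and 107 LSK-only genes. A response size of at least 2 left 579 AML-only, 52 LSK-only, 2 opposite and 21 same-direction genes. Counting called responses of opposite sign at any size, outside the AML-only and LSK-only classes, gave 337 genes. Leaving out each array in turn gave 6404 to 6590 called genes, 2357 to 2423 AML-only, 186 to 208 LSK-only, 17 to 24 opposite and 119 to 125 same-direction genes. Centring each array on its median gave 6860 called genes, 40.7% of them higher against 46.4%. All 21 opposite genes kept both signs in every refit, but only 14 of them kept their class with all 18 arrays. Fits with array weights, a trended prior, quantile normalization, other filters, floored values and averaged probe sets changed no count of a class by over 1.5 times. The replicate number as a block gave 6696 called genes, of which 6551 are shared with the fit without it. Deviations from group means correlated at -0.065 to 0.041 between arrays of the same number (18 pairs) and at -0.056 to 0.052 otherwise. No shared variation by number was visible, but this cannot show whether arrays of the same number had a common origin. LSK compound replicate 1, which only the fit of all 18 arrays holds, had a median of 3.235 and an SD of 1.4453 over all probe sets. The other arrays had medians of 2.6485 to 2.7488 and SDs of 2.0051 to 2.0797. Why that array differs was not tested. Signal near background limits the LSK-only class, and 14 of 17 further probe sets of 14 named genes had the same sign. Dimmer probe sets gave smaller differences for Ccdc80 (-2.92), Socs2 (1.88), Slc1a5 (-1.52) and Ppan (-1.88), and -1.68 to -0.71 for Cycs.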
